A study of Rattus norvegicus with 13 samples.

Results

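The table of small RNA counts from rat kidney held 401 rows that its authors listed as predicted microRNA windows in the rat genome, each named by chromosome, start and end. They came in 2 categories of 326 and 75 rows out of 1121 rows in all. Every row of the smaller category overlapped a row of the larger one, and merging rows that shared at least 1 base left 326 windows. Of these, 75 joined 2 rows and 251 were a single row. A merged window carries the counts of the row with the larger total. Coordinates are those of the rn4 build as the deposited names give them, and the names give no strand.

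Kidneys came from 13 rats of the inbred strain WAG/RijCmcr, all female, 11 to 12 weeks of age and about 155 g in weight. The control group (n = 4) was not irradiated. In the irradiated group (n = 4) the body was exposed to 13 Gy, given as X-rays of 320 kVp and 1.75 Gy per minute, behind a shield over 1 hind limb that spared part of the bone marrow. Irradiated plus lisinopril rats (n = 5) received the same exposure and, from day 7, drank water that gave about 24 mg per m2 per day of lisinopril, an inhibitor of angiotensin converting enzyme. All kidneys were taken at day 35. The protocol also names saline at 40 ml per kg from day 3 to 7 and the antibiotic enrofloxacin at 10 mg per kg to day 14, without saying plainly which groups had them. The libraries are of bulk tissue, in which fewer cells of a type and less RNA per cell cannot be told apart.

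A microRNA is cut from a hairpin precursor as a strand of about the length of the sequences printed here, and its seed, bases 2 to 8 from the 5′ end, pairs with target messenger RNAs. Small RNA pipelines predict new microRNAs by looking for read stacks in genome stretches that could fold into such a hairpin. A predicted window can therefore lie on a microRNA that the annotation already holds, on another arm or copy of it, or elsewhere. Kidney tubule is known for high miR-10a, miR-30, miR-192, miR-194 and miR-200 family levels.

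Values are given as CPM, read counts scaled to 1000000 counts in the 460 rows of mature rat microRNAs of the same library. These totals ranged from 4885082 to 11095939 counts, apart from control 2 with 1194175. A level of 3 counts corresponds to 2.51 CPM in control 2 and to 0.27 to 0.614 CPM in the other 12 libraries. Control 2 also stood apart in the share of mature counts under names of other species, 29.0% against 10.3% to 14.6%. The tissue label was checked with 7 kidney tubule microRNAs, all found, which summed to 414709 to 582943 CPM in every library. Those of leukocytes summed to 622 to 1510 CPM, those of erythroid cells to 714 to 4602 CPM, and the 2 of 4 striated muscle microRNAs found to 22.1 to 51.1 CPM. Of 2 neural microRNAs 1 was found, miR-9a-5p at 226 to 440 CPM, and the 1 liver microRNA looked for was not found. The part of these cells in the results was not tested.

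The windows held reads equal to 15.1% to 19.9% of the rat mature total of a library. Most of that lay in few windows: the top window held 35.7% and the top 10 held 83.3% of the window CPM. The median window had 4.99 CPM. There were 18 windows above 1000 CPM, 129 at 10 CPM or more, 197 below 10 CPM and 67 below 1 CPM. They lay on every autosome and on X, with 36 on chromosome 1, 31 on X, 27 on chromosome 6, 24 on chromosome 17 and 22 on chromosome 10. The larger category had windows of 66 to 356 bases (median 134), the smaller one of 75 to 121 (median 84).

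Many windows kept a nearly constant ratio to a known rat microRNA over the libraries. A window was said to follow a mature row when, over the 13 libraries, the log2 CPM values (with a prior count of 2) correlated at r of at least 0.95, the SD of the log2 ratio was at most 0.25 and both means reached 10 CPM. Of the 129 windows with 10 CPM or more, 61 followed a mature row, and they followed 59 different rows. The correlation is a description over 13 libraries that both values share, and 14 of the windows met the rule with more than 1 mature row, in which case the row with the smallest SD was taken. Whether the same reads were counted under both names is not stated in the sources used here.

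The mature sequences of the rows that the results turn on are printed here, taken from the RefSeq table of the GRCr8 build, which gave a sequence for 51 of the 59 followed rows. Capitals mark the seed. The first set are the microRNAs of the most abundant windows, beside miR-27b-3p in the second set.

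miR-192-5p: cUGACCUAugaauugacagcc
miR-21-5p: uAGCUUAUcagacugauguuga
miR-125a-5p: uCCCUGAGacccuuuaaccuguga
miR-194-5p: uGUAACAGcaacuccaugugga

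The second set are followed rows that share a seed with another followed row. Among the 51 sequences there were 44 different seeds, and 7 seeds were each held by a pair. The sequences of 4 pairs are shown because their windows lie in 1 cluster or in paralogous clusters.

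miR-27a-3p: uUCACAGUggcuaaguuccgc
miR-27b-3p: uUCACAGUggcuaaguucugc
miR-19a-3p: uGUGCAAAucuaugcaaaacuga
miR-19b-3p: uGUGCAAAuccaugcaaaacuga
miR-181c-5p: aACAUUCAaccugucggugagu
miR-181d-5p: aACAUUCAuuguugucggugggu
miR-221-3p: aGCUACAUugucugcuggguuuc
miR-222-3p: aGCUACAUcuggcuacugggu

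The third set are microRNAs whose windows are described for single libraries or for the group comparisons, together with miR-34a-5p, which shares its seed with miR-34c-5p and is known as a target of p53.

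miR-26b-5p: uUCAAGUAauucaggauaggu
miR-30c-2-3p: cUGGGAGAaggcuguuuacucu
miR-34a-5p: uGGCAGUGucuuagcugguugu
miR-34c-5p: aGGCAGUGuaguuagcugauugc
miR-127-3p: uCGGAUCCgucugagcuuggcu
miR-532-3p: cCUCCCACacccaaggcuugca

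The window that followed miR-192-5p, chr1:209040264-209040356, was the most abundant of all. It read 73970, 50851, 63975 and 76809 CPM in the controls, 55456, 38423, 54230 and 64865 CPM in the irradiated kidneys, and 47895, 65891, 86857, 60157 and 64906 CPM with lisinopril. The 3 groups overlapped. Its geometric mean ratio to miR-192-5p, a microRNA known for its tubule expression, was 0.938 with an SD of 0.0184 on the log2 scale. The second was chr17:7351451-7351540, which followed miR-27b-3p at a mean of 23567 CPM and a ratio of 0.968. The window chr10:74864475-74864611 followed miR-21-5p, known as a microRNA of tissue injury and fibrosis, at 13126 CPM and a ratio of 0.976. The window chr1:56487556-56487694 followed miR-125a-5p at 4280 CPM and a ratio of 0.969.

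The median ratio of the 61 windows to their rows was 0.942, with 37 between 0.9 and 1.1 and a median SD of 0.0407. The closest was chr1:56486962-56487047, whose ratio to miR-99b-5p was 0.962 with an SD of 0.00528 on the log2 scale. The window that followed miR-150-5p, a microRNA of lymphocytes, chr1:95595997-95596181, had a ratio of 0.979 with an SD of 0.00791. Ratios ran from 0.0458 to 1.51, and 4 were below 0.5. The lowest were those of chrX:139740786-139740910 to miR-92a-3p (0.0458) and of chr3:118996571-118996718 to miR-103-3p (0.0647). The highest was that of chr2:40714076-40714226 to miR-582-3p.

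The position of the windows, which the rule did not use, was compared with the chromosome of the gene of the followed microRNA in the GRCr8 annotation. Of the 61 windows, 58 had such a gene, and all 58 lay on the same chromosome as it. Of the 68 windows with 10 CPM or more that followed no row, 66 had a gene for their closest row, and 8 of the 66 lay on its chromosome. In the examples given next, windows that followed members of a known microRNA cluster were also neighbours. On chromosome 17 the miR-27b-3p window was next to chr17:7351674-7351851, which followed miR-23b-3p. On chromosome 19, chr19:25667395-25667479 followed miR-181c-5p and chr19:25667546-25667672 followed miR-181d-5p. On chromosome X, chrX:14935047-14935167 followed miR-222-3p and chrX:14935595-14935745 followed miR-221-3p. Windows that followed a row and the other windows had the same median length of 132 bases, against a median of 86.5 bases (59 to 120) for the annotated hairpins of the followed microRNAs. They differed in abundance, with a median of 150.0 CPM for the 61 and 2.58 CPM for the other 265, but the rule itself asks for at least 10 CPM.

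**Figure D1:**
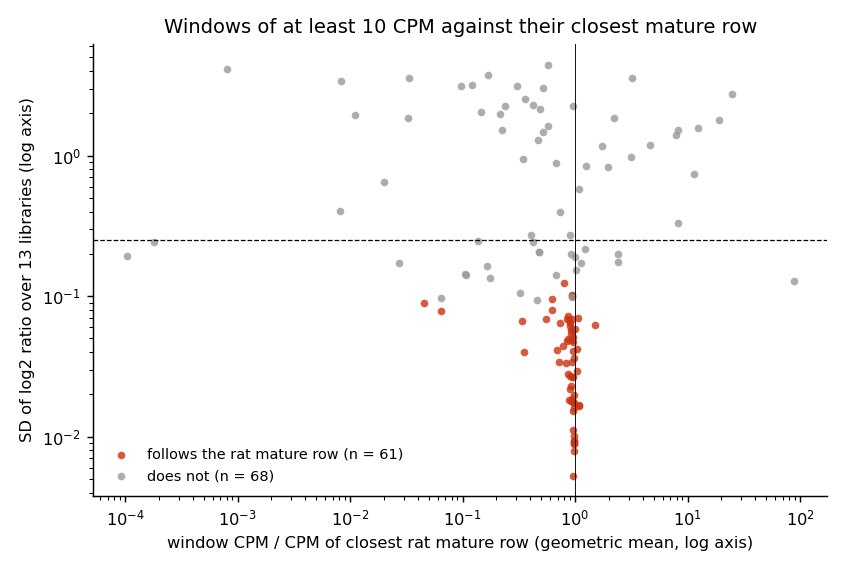
Each point is 1 of 129 windows whose mean reaches 10 CPM. The x axis is the geometric mean ratio of its CPM to that of the closest rat mature row and the y axis is the SD of that log2 ratio over 13 libraries, both on log axes; the dashed line is the SD limit of 0.25. The 61 windows that follow a row lie at SDs up to 0.124, mostly near a ratio of 1.

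A pair of microRNAs was followed by 2 windows each. For miR-19b-3p these were chr15:99854312-99854416 and chrX:139740938-139741012, on the chromosomes of the miR-17-92 and miR-106a-363 clusters, which each hold a copy. Their means were 231.9 and 233.1 CPM with ratios of 0.978 and 0.983 to the same row. Summed, they held 1.94 to 1.97 times the counts of miR-19b-3p in the libraries, so that each window alone carried nearly as many counts as the row. For miR-138-5p the windows were chr19:11114628-11114774 and chr8:127390258-127390406, and their sum was 1.66 to 1.94 times the row.

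Near the limits of the rule, the follow window with the lowest correlation had r = 0.957. Just outside stood chr3:57340834-57340986, the third most abundant window with 21840 CPM, at r = 0.911 to miR-10a-5p and an SD of 0.0968. Its ratio to miR-10a-5p was only 0.0641, and the window that followed miR-10a-3p, of the same gene, lay on chromosome 10. The chromosome 3 window read 20561, 31461, 19228 and 20788 CPM in the controls, so that control 2 was high, and 17315 to 20632 CPM in the irradiated kidneys. Also outside was chr9:22142880-22142971 with 6147 CPM, whose closest row was miR-145-3p at a ratio of 88.6. A further 16 windows met the rule when a single library was left out, not all of them with a row whose gene lies on the window's chromosome.

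For several of them, 1 library carried the whole departure. The window chr9:73734035-73734173 had 192 counts in irradiated 4, or 33.0 CPM, where miR-26b-5p had 31119 counts, or 5345 CPM. In the other 12 libraries it read 3806 to 5817 CPM with a ratio of 0.931 to miR-26b-5p and an SD of 0.0155. The window chr15:99853726-99853834 had a ratio of 0.974 to miR-17-5p in 12 libraries, but in control 2 it read 75.4 CPM against 118 for the row. The window chr19:25638726-25638840, beside the miR-27a-3p window chr19:25638548-25638696, had a ratio of 0.972 to miR-23a-3p without control 2, where it read 542 against 853 CPM. In the other direction, chr6:132990805-132990891 read 138 CPM in control 1 against 81.3 CPM for miR-342-3p, while its ratio was 0.864 elsewhere. In irradiated 2, chr5:80239825-80239947 read 85.2 CPM against 38.3 CPM for miR-455-5p, with a ratio of 0.981 elsewhere. All of these windows lie on the chromosome of the gene of that microRNA.

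**Figure D2:**
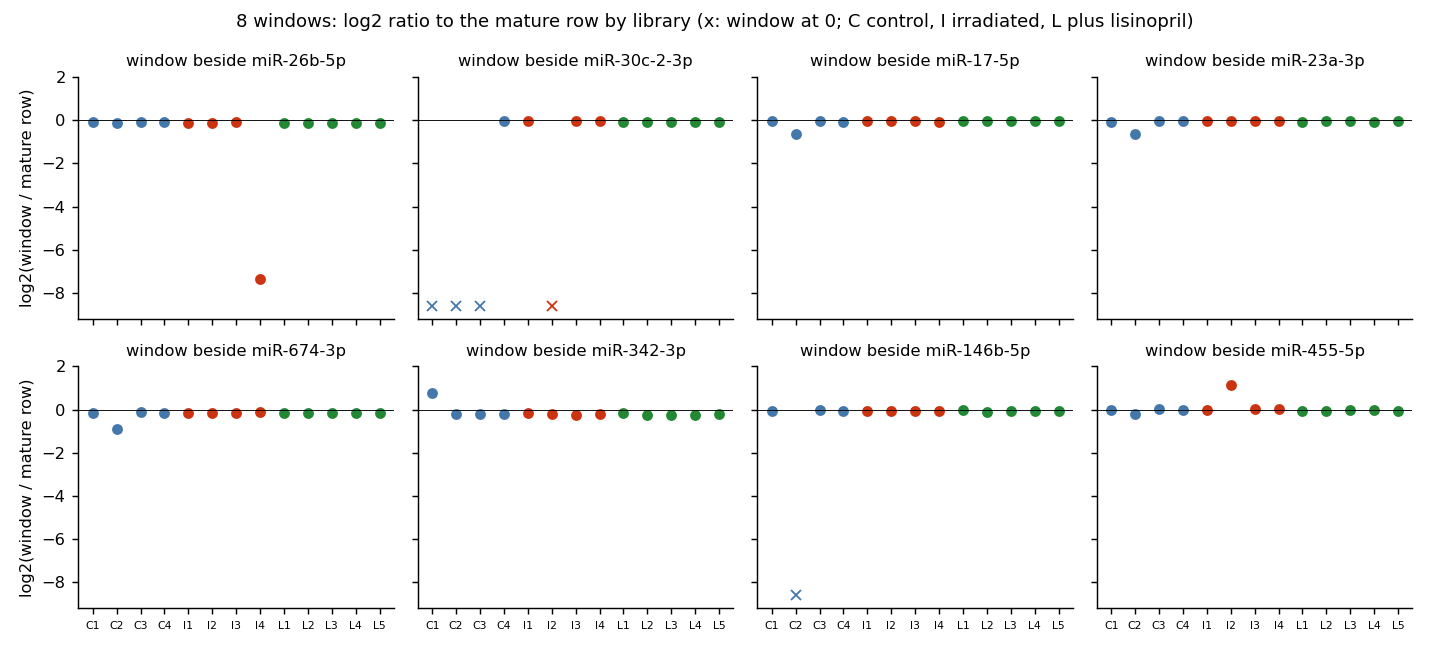
Each panel is 1 window and the mature row it is compared with; the y axis is the log2 ratio of their CPM and the x axis the 13 libraries by group. The ratio is close to 0 in most libraries and leaves it clearly in a single one, as for miR-26b-5p in irradiated 4, or in 4 for miR-30c-2-3p, and a cross marks a library where the window is at 0.

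Other windows stood at 0 in libraries where the row they otherwise matched was well covered. Among windows on the chromosome of the row's gene, the case with most libraries was chr9:22162629-22162721 beside miR-30c-2-3p. It read 0 in controls 1, 2 and 3 and in irradiated 2, where the row held 1106, 146, 1808 and 2081 counts. In the other 9 libraries it read 165 to 284 CPM with a ratio of 0.958 to the row and an SD of 0.0141. Over the libraries where a window was above 0, a comparison chosen after seeing the data, 7 more windows met the rule. They were those beside miR-146b-5p, miR-145-3p, miR-345-3p, miR-30c-2-3p, miR-188-5p, miR-500-3p and miR-149-5p, the last at a ratio of 0.283 and on another chromosome than its gene. Together they held 14 values of 0, where the rows had 10 to 2081 counts.

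Zeros were common over all windows. Of 4238 values, 553 were 0, and at 318 of these more than 10 counts would be reached at the window's mean level in the libraries where it was above 0. There were 144 windows with no 0 and 182 with a 0 in at least 1 library, up to 7 libraries. Libraries held 19 to 49 windows at 0, apart from control 2 with 157. A window was called detected in part when it was at 0 in 1 to 12 libraries and had a median above 50 counts in the others, and 50 windows were. Of the 50, 42 were at 0 in control 2 and 12 were at 0 in that library alone. At the windows' mean level, control 2 would hold a median of 18.7 counts (8.64 to 448) for these 42.

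Among the windows detected in part, chr7:142195678-142195813 had 303 to 493 CPM in 12 libraries and 0 in control 2. A row of another predicted category with the same coordinates held 329 counts in control 2. The window chr6:111674201-111674353 had 0 in control 2 and 17.1 CPM in control 3, against 133 to 207 CPM in the other 11 libraries. The window chr16:6445922-6446075 read 0, 4746, 172 and 238 CPM in the controls, 267, 242, 218 and 86.6 CPM in the irradiated kidneys, and 0, 88.6, 24.6, 2.97 and 31.7 CPM with lisinopril. Control 2 was the highest library for this window, and its groups overlapped.

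**Figure D3:**
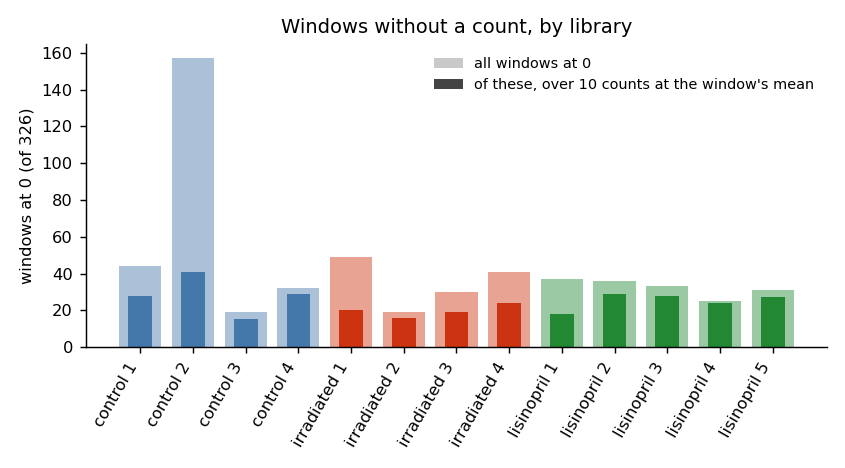
Bars give, per library, the number of the 326 windows with a count of 0; the narrow dark bars are those that would exceed 10 counts at the window's mean level. Control 2 has 157 and the other 12 libraries 19 to 49, while the dark bars range from 15 to 41.

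The 75 pairs of overlapping rows show how far 2 rows on 1 locus can differ within a library. Of 975 pairs of values, 654 (67.1%) were equal. In 144 the shorter-category row was at 0 and the longer one was not, and in 97 of these the longer one had more than 50 counts. The reverse was seen in 7, and 24 were at 0 in both. For 16 pairs all 13 values were equal, and 44 pairs had such a 0 in at least 1 library. The row of the miR-21-5p window had 154829 counts in control 1, where the row nested in it had 0. Beyond the 2 categories, 31 windows overlapped rows that the authors predicted from microRNAs of other species, in 39 pairs. Only 7 of their 507 values were equal, and in 73 a single member of the pair was at 0.

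Some windows at different places had the same counts. Equal counts in at least 8 libraries were found in 12 pairs of windows, 10 of them on 1 chromosome, and 5 pairs were equal in all 13. These were chr17:51213892-51214028 with chr17:51214076-51214182 (12.8 CPM each), the 3 pairs among 3 windows of chr17:79271595-79288646 (1.65 CPM each), and chr20:19383381-19383483 with chr20:19393481-19393583 (0.685 CPM each). Their values are not independent.

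Windows with gaps of at most 10 kb formed 7 groups of 3 or more, with 33 windows in all. The group with most reads, chrX:139740786-139741553, held 4 windows, which followed miR-92a-3p and miR-19b-3p or no row. Their summed level was 589 ± 122 CPM (SD, n = 4) in the controls, 645 ± 84.5 CPM (SD, n = 4) after irradiation and 544 ± 88.4 CPM (SD, n = 5) with lisinopril. Its counterpart on chromosome 15, chr15:99853726-99854416, held the windows beside miR-17-5p, miR-19a-3p, miR-20a-5p and miR-19b-3p, members of the proliferation-linked miR-17-92 cluster. These summed to 515 ± 171 (SD, n = 4), 396 ± 58.4 (SD, n = 4) and 389 ± 61.5 CPM (SD, n = 5), with control 2 highest at 745 CPM.

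The group with most members, chr6:134389311-134416485, held 10 windows, of which chr6:134407660-134407804 followed miR-381-3p and chr6:134415618-134415722 followed miR-134-5p. Both microRNAs belong to the imprinted Dlk1-Dio3 region. The other 8 windows there had 0.6 to 4.6 CPM. The summed level was 70.9 ± 25.8 (SD, n = 4), 63.1 ± 13.4 (SD, n = 4) and 48.4 ± 8.01 CPM (SD, n = 5) in the order control, irradiated and lisinopril, and the groups overlapped. On chromosome X, the 4 windows of chrX:27323113-27334694 included those beside miR-532-3p, miR-188-5p and miR-500-3p. They summed to 36.1, 16.7, 51.2 and 42.1 CPM in the controls and to 66.5, 76.3, 68.6 and 51.4 CPM after irradiation. The lowest irradiated kidney was just above the highest control. With lisinopril they summed to 48.8, 48.7, 38.7, 40.7 and 40.7 CPM, all below the irradiated kidneys. The sum of 16.7 CPM in control 2 includes values of 0 for the windows beside miR-188-5p and miR-500-3p, whose rows held 14 and 10 counts there. None of the 4 windows passed the test in any comparison.

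Group differences were tested for the windows in edgeR's quasi-likelihood fit of the whole table, with Benjamini-Hochberg adjustment over the 909 rows that passed the filter on low counts and a threshold of 0.05. Of the 326 windows, 275 were tested, including all 61 that follow a mature row and all 50 detected in part. The median standard error of the log2 fold change was 0.214 to 0.226 for the 61 and 0.713 to 0.766 for the other windows. Scaling by TMM factors in place of totals moved the median log2 fold change of all rows by -0.232 for irradiated against control and by 0.184 for lisinopril against irradiated, so directions are read against the medians of all rows. The lisinopril and irradiated groups are each compared with the same controls.

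For irradiated against control, 0 windows were higher and 0 were lower in edgeR's fit. There, 38 of 275 windows had an unadjusted p under 0.05, against 194 of all 909 rows. Over all 909 rows, edgeR called 0.11% higher and 0.0% lower. DESeq2 called 4 windows, among them those that follow miR-34c-5p and miR-92a-3p and the window chr11:33538446-33538580, and limma-voom called 0. The shares over all rows in DESeq2 and limma-voom are not given here, so these counts have no background beside them. Fold changes were above 0 for 188 of the 275, with a median of 0.28 on the log2 scale against 0.26 over all rows. The smallest p was that of the window that follows miR-34c-5p, chr8:54422036-54422132. It read 199, 131, 205 and 195 CPM in the controls and 333, 279, 367 and 320 CPM in the irradiated kidneys. The groups did not overlap, and the log2 fold change was 0.83 (SE 0.17) with an adjusted p of 0.123 in edgeR and 0.00205 in DESeq2. The row of miR-34c-5p itself had 0.82 and an adjusted p of 0.122, and the called row of its seed partner miR-34a-5p had 2.78 and 3.74e-07. With lisinopril the window read 309, 288, 231, 240 and 217 CPM, at 0.49 against control with an adjusted p of 0.13.

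The next window on that chromosome, chr8:54422537-54422683, was looked at after its values were seen. It read 6.62, 2.51, 7.00 and 5.84 CPM in the controls, 12.9, 9.58, 11.5 and 8.59 CPM after irradiation and 10.9, 8.42, 7.69, 5.95 and 8.11 CPM with lisinopril. All 4 irradiated kidneys were above all 4 controls, at a log2 fold change of 0.91 and an adjusted p of 0.162 in edgeR. It was under the 10 CPM that the follow rule asks for. The rows of miR-34b-5p and miR-34b-3p, whose gene neighbours that of miR-34c, were also under 10 CPM on average.

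Of the other 4 windows with the smallest p, each had an adjusted p of 0.162 in edgeR. The window chr11:33538446-33538580 had -0.92, with an adjusted p of 0.0325 in DESeq2 and 8.93 to 11.3 CPM in the controls and 3.68 to 7.57 CPM after irradiation. The miR-92a-3p window chrX:139740786-139740910 had 0.93, with an adjusted p of 0.0384 in DESeq2 and 150 to 230 CPM against 222 to 515 CPM, which overlap. The window chr1:206572364-206572498 had 0.87, with 13.1 to 19.4 against 17.7 to 40.4 CPM. The window that follows miR-324-3p, chr10:56858007-56858151, had 1.11, with 11.3 to 24.0 against 20.6 to 58.1 CPM. In the last pair of windows the lowest irradiated kidney was within the range of the controls.

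For irradiated plus lisinopril against control, 2 windows were higher and 2 lower at an adjusted p under 0.05 in edgeR's fit. An unadjusted p under 0.05 was seen for 30 of 275 windows, against 164 of all 909 rows. The count of called windows was 3 higher and 6 lower with TMM factors, 2 and 7 with RLE factors and 3 and 5 in DESeq2. It was 2 and 7 without control 4, and 0 and 1 without lisinopril 3 or without lisinopril 4. Over all 909 rows, edgeR with scaling to totals called 0.77% higher and 3.41% lower, against 4 of 275 windows in both directions. The shares over all rows under the other settings are not given here. Fold changes were above 0 for 152 of the 275 windows, with a median of 0.09 against 0.08 over all rows. The groups compared differ by both the exposure and the drug, whose parts cannot be told apart here. Against the irradiated group, the called windows on chromosomes 11, 6, 17 and 1 had log2 fold changes of -0.29, 0.48, -1.01 and 4.50. Their adjusted p-values in edgeR were 0.52, 0.33, 0.48 and 0.245 in that order.

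The window chr11:33538446-33538580 was lower. It read 11.3, 10.9, 10.1 and 8.93 CPM in the controls and 3.99, 5.10, 4.48, 4.78 and 3.85 CPM with lisinopril, so that the groups did not overlap. The irradiated kidneys read 7.57, 3.68, 4.65 and 5.84 CPM, all below the controls and partly within the range with lisinopril. Its log2 fold change was -1.21 (SE 0.21) with an adjusted p of 0.0129 in edgeR, and it was called under all 19 alternatives run for it. Its mean of 6.55 CPM was under the 10 CPM of the follow rule, so it could follow no row, and its closest, miR-499-5p, was at r = 0.86.

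The window that follows miR-127-3p, chr6:134184295-134184425, was higher. MiR-127-3p is a microRNA of the imprinted Dlk1-Dio3 region. The window read 12.3, 10.9, 17.5 and 14.2 CPM in the controls, 16.8, 30.2, 20.05 and 19.2 CPM after irradiation, and 23.8, 31.7, 32.3, 35.4 and 27.0 CPM with lisinopril. All 5 lisinopril kidneys were above all 4 controls. The log2 fold change was 1.12 (SE 0.21) with an adjusted p of 0.0213 in edgeR, and the row of miR-127-3p had 1.12 and 0.0091. Without lisinopril 3 or lisinopril 4 the window's adjusted p was 0.0503 or 0.0631. The windows of the 10-member group further along this chromosome, from the same region, had fold changes below 0 for all 7 tested (-2.04 to -0.36), none of which passed.

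The window chr17:73486901-73487019 was lower at -2.97 (SE 0.64) with an adjusted p of 0.0225. It read 104, 374, 176 and 75.3 CPM in the controls and 31.1, 19.8, 10.5, 41.3 and 13.2 CPM with lisinopril. Control 2 was the highest library, and the irradiated kidneys spread over 12.0 to 96.7 CPM. Without control 2 the log2 fold change was -2.35 and the adjusted p 0.0673, and it was also above 0.05 without lisinopril 2, 3, 4 or 5 (0.058, 0.0654, 0.0631 and 0.0696).

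The window chr1:22266723-22266826 was higher at 5.33 (SE 1.25) with an adjusted p of 0.0336 in edgeR. Its values were 414, 7.09, 114, 182 and 6.13 CPM with lisinopril, 3.55, 0, 5.94 and 3.53 CPM in the controls and 6.55, 5.30, 8.34 and 5.32 CPM after irradiation. The libraries of lisinopril 1, 3 and 4 were high and the other 2 were within the range of the irradiated kidneys. It was called under 10 of 19 alternatives. Limma-voom gave 3.68 with an adjusted p of 0.325, and a fit of only the 2 groups gave an adjusted p of 0.0995. Leaving out any 1 control, or lisinopril 1, 3 or 4, gave adjusted p-values of 0.0574 to 0.0788, and without lisinopril 1 the log2 fold change was 4.43.

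**Figure D4:**
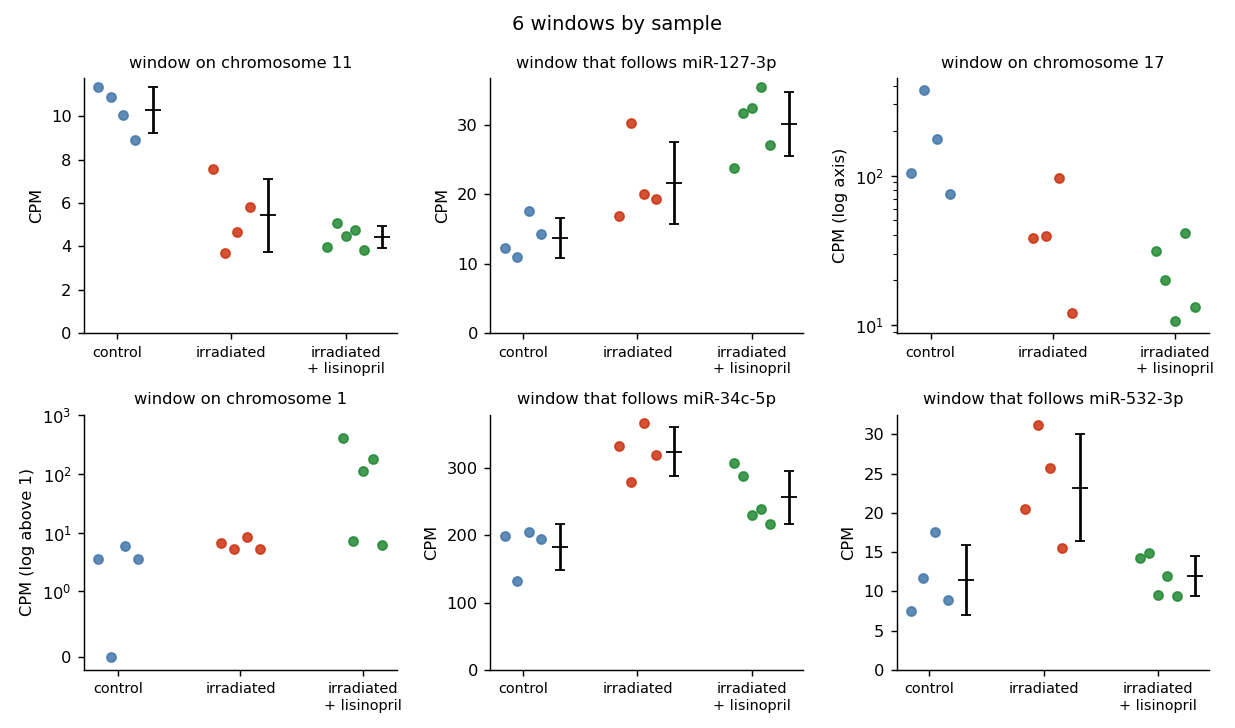
Each point is 1 kidney and the y axis is CPM, from 0 on linear axes and on log axes for the windows on chromosomes 17 and 1, where the control at 0 is drawn at 0; bars show mean and SD where the axis is linear. The chromosome 11 window falls from 8.93 to 11.3 CPM in controls to 3.85 to 5.10 CPM with lisinopril, and 3 of 5 lisinopril kidneys carry the high values of the chromosome 1 window.

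For irradiated plus lisinopril against irradiated, 0 windows were higher and 0 lower in edgeR's fit, and limma-voom called 0 and DESeq2 1. In edgeR, 26 of 275 windows had an unadjusted p under 0.05, against 130 of all 909 rows. Over all 909 rows, edgeR called 0.0% higher and 0.22% lower. The shares over all rows in DESeq2 and limma-voom are not given here, so their counts have no background beside them. Fold changes were above 0 for 66 of 275 windows, with a median of -0.30 against -0.28 over all rows. The 5 windows with the smallest p each had an adjusted p of 0.245. One was the window chr1:22266723-22266826, at 4.50 in edgeR, with 3.59 without lisinopril 1 and 2.99 in limma-voom, and DESeq2 called it at an adjusted p of 0.000346. The window that follows miR-532-3p, chrX:27323113-27323257, had -0.95 (SE 0.28). It read 20.5, 31.2, 25.7 and 15.5 CPM after irradiation and 14.2, 14.8, 9.54, 12.0 and 9.36 CPM with lisinopril, which do not overlap, and 7.45, 11.7, 17.5 and 8.93 CPM in the controls. The window chr13:92545049-92545193 had -0.64, with 3.44 to 5.45 against 2.43 to 3.10 CPM. The window chr5:172717156-172717296 had -1.37, with 3.78 to 9.28 against 1.26 to 2.92 CPM. The window chrX:52451942-52452088 had 0.51, with 25.8 to 32.8 against 33.3 to 49.0 CPM.

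The fold changes of the windows that follow a mature row are given beside those of the rows as a description, since the follow rule asks for a near-constant ratio over these same libraries and so fixes their likeness. The median absolute difference over the 61 pairs was 0.0185 for irradiated against control, 0.0167 for lisinopril against control and 0.0147 for lisinopril against irradiated on the log2 scale, and the largest was 0.128. The sign was the same in 59, 59 and 60 of the 61. The 2 windows of miR-19b-3p had -0.67 and -0.68 for irradiated against control, and the 2 neighbours in the miR-17-92 cluster beside miR-17-5p and miR-20a-5p had 0.18 and 0.17, values smaller than the shift between scalings. The fourth window of that cluster, which follows miR-19a-3p, had -1.04. The miR-19b-3p window on chromosome 15 read 313, 538, 219 and 187 CPM in the controls, with control 2 highest. After irradiation it read 158 to 261 CPM, which overlaps the controls. In control 2 the window beside miR-17-5p was in turn low, at 75.4 CPM against 118 CPM for its row. None of these windows passed the test in edgeR. Of the 4 windows called in edgeR's fit, 1 followed a mature row, against 61 of the 275 tested, and 1 of the other 3 was under the 10 CPM that the rule asks for.

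**Figure D5:**
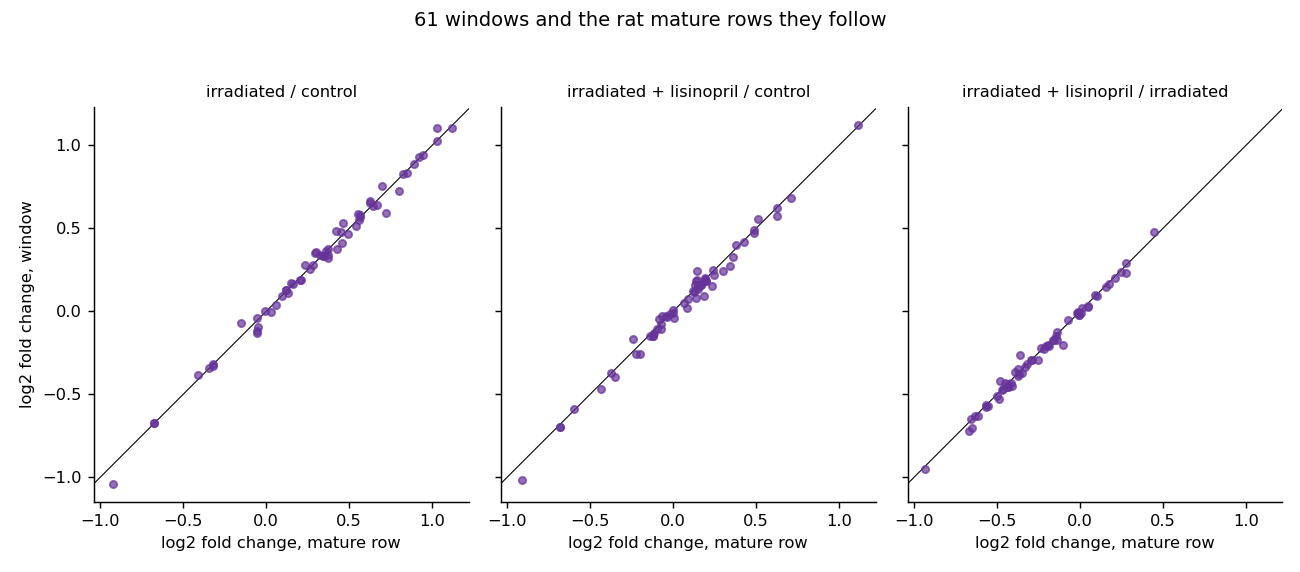
Each point is 1 of the 61 windows that follow a mature row; the x axis is the log2 fold change of the row and the y axis that of the window, for the 3 comparisons, and the line marks equal values. The points lie within 0.128 of the line, which the follow rule fixes, since it was applied to the same libraries.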

How the data were processed

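Small RNA libraries (TruSeq kit, 1 ug of total RNA, per the labels' protocols) were made from 13 rat kidneys. The submitters' processing notes name Trim Galore 0.2.5, Bowtie 1.1.1 and the rn4 build. How windows were called, and how reads that map to several places were counted, is not stated in the sources used here. Values in the deposited table are whole-number counts of reads for each row and library, with no normalization seen in the values. Groups came from the labels, which describe separate animals.

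Overlapping rows of the 2 window categories were merged, the row with the larger total standing for the locus, and CPM used the totals of the 460 rat mature rows. In R 4.3.3, edgeR 4.0.16 (filterByExpr, glmQLFit, glmQLFTest) fitted a mean per group to 1046 rows over all 13 libraries, with library size set to the mature total. The fit tested 909 rows, with a biological coefficient of variation of 0.589. Replicates correlated across windows at r = 0.658 to 0.916, against 0.972 to 0.997 across mature rows, and no libraries were alike within sampling noise (chi-square over its degrees of freedom 47.8 to 459). Alternatives used DESeq2 1.42.0, limma 3.58.1 (voom), TMM and RLE factors, other filters, other merging and libraries left out. Floors (3 counts) cover counting error only, while SDs given with n are between the kidneys of a group and SEs are those of the edgeR fit. The procedure was tested on simulated data.

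The windows named are the 10 most abundant, per comparison up to 8 called in each direction, or 5 by smallest p in a comparison without calls, the 5 that follow a mature row most closely, the 5 detected in part with the highest median, and groups within 10 kb. Others are given as examples of ratios, zeros or position chosen after their values were seen. Members and lists were chosen with earlier results of these data known. Window sequences are not given, since no rn4 genome was used here.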

Additional observations from a re-analysis of the deposited data

Results flagged for a closer look

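Of 96 groups of values over 32 named windows, 10 held a library that stood far from the others of its group by Dixon's test. Chance flags about 1 in 20 groups. That rate is no background for the 10, since some windows were chosen for zeros in part of the libraries or for their p. In 3 of the 10 groups the library was control 2. The window chr16:6445922-6446075 read 4746 CPM there against 0 to 238 in the other controls, chr3:57340834-57340986 read 31461 against 19228 to 20788 CPM, and the miR-34c-5p window chr8:54422036-54422132 read 131 against 195 to 205 CPM. The row of miR-34c-5p likewise read 140 CPM in control 2 against 198 to 208. The row of miR-10a-5p, closest to the chromosome 3 window, read 442500 CPM there against 317300 to 349300. Without control 2, edgeR called 0 windows for irradiated against control, as with it.

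Other controls stood apart for 3 windows. The miR-301a-3p window chr10:75386826-75386952 read 871 CPM in control 1 against 461 to 487, and its row read 887.5 there against 471.5 to 498.3. The miR-150-5p window chr1:95595997-95596181 read 795 CPM in control 3 against 323 to 350, and its row read 807 there against 330 to 356. The window chr9:22162629-22162721, beside miR-30c-2-3p, read 213 CPM in control 4 against 0 in the other 3 controls. The row of miR-30c-2-3p read 131, 122, 192 and 218 CPM in the controls, so the controls at 0 were those that departed from it.

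With lisinopril, lisinopril 2 was low for chr3:57340834-57340986, at 20006 CPM against 23151 to 24336. Lisinopril 1 was high for the miR-30b-5p window chr7:105815894-105816020, at 4147 CPM against 1836 to 2499, and for chr9:22162629-22162721, at 284 CPM against 165 to 197. The rows of miR-30b-5p and miR-30c-2-3p were also highest of the group in lisinopril 1, at 4202 and 298 CPM. Lisinopril 1 was low for chr9:22142880-22142971, at 5849 CPM against 7054 to 7544.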

How the results depend on the processing

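The number of windows called moved by more than 1.5 times as follows, without the shares over all rows under these settings beside it. DESeq2 called 4 windows for irradiated against control, where edgeR called 0, and 1 for lisinopril against irradiated, where edgeR called 0. For irradiated plus lisinopril against control, edgeR called 4. TMM factors gave 9 (3 higher, 6 lower), RLE factors 9 (2 higher, 7 lower) and DESeq2 8 (3 higher, 5 lower). In edgeR, leaving out 1 library in turn gave 1 to 9 there, with 9 without control 4 and 1 without lisinopril 3 or without lisinopril 4, and 0 throughout in the other 2 comparisons. Windows detected in part fell from 50 to 27 with a median above 100 counts, and leaving out 1 library gave 38 (control 2) to 50. Windows that follow a mature row numbered 61 to 69 with 1 library left out, 53 at an r of at least 0.98, 61 at an SD of at most 0.15, and 68 over the libraries where a window is above 0, a setting chosen after seeing the data. The causes were not tested. Alternatives were run for the 12 named windows chosen by their p, each in the comparison that chose it, and none of these fold changes changed direction. Since the choice by p used the same libraries, an unchanged direction was likely beforehand. No paired analysis was possible because the replicate numbers follow accession order. Depth limits control 2, where 3 counts are 2.51 CPM, and 67 windows below 1 CPM.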
